A study of Rattus norvegicus with 35 samples.

Results

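Apoptosis regulators were followed through 7 genes on the arrays of a rat mammary series: Tnfrsf1a, Casp8, Bax, Bcl2, Bcl2l1, Mcl1 and Xiap. Every probe set (a group of short probes for one transcript) that the platform annotation assigns to one of these genes was taken, which gave 10 of the 15866 non-control probe sets in the table (10411 genes had a probe set of a single symbol). Bcl2l1 was read by 3 probe sets, Mcl1 by 2 and each of the others by 1. The Bax probe set is annotated to Bax and to LOC681314 together, so its signal is uncertain as to the gene and is called the Bax/LOC681314 probe set here. The samples were 24 frozen mammary tumours induced with N-methyl-N-nitrosurea (NMU), an alkylating carcinogen that gives rats mammary tumours and 11 normal mammary glands. Titles split the glands into 8 called NewN and 3 others, X27.1N, X28.1N and the gland called Young. Strain, age and treatment of the normal glands are not given in the labels, and whether each array came from its own animal is not stated, so p-values measure how far these samples scatter, which may partly be technical. Tumour titles repeat a number in X25L with X25R and in X29.1 with X29.2, and the tumours X27 and X28 share a number with the glands X27.1N and X28.1N.

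Cells can be brought to apoptosis by 2 routes. In the receptor route, a death receptor such as TNFR1 (encoded by Tnfrsf1a) recruits adaptors that activate caspase 8. In the mitochondrial route, BAX opens the outer mitochondrial membrane and releases cytochrome c, while BCL2, BCL-XL (encoded by Bcl2l1) and MCL1 hold BAX and its activators in check. XIAP binds and blocks active caspases after either route has started. In the mammary gland these proteins are best known from involution after weaning, when the secretory epithelium is cleared by apoptosis.

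The signals were linear intensities, and changes were computed as log2 of the signal after values under a floor of 41.6 (the 10th percentile of all values) were set to that floor. A probe set was called at a limma adjusted p under 0.05 over all 15866 probe sets. In tumours 4 of the 10 member probe sets rose, 5 fell and 1 was not called. Over all probe sets 58.2% were called, 33% higher and 25.2% lower; with quantile normalization the share was 55.2% (33.8% higher, 21.3% lower). The median absolute log2 change was 0.42 over the 10 member probe sets and 0.28 over all probe sets. For every member the range of the tumours overlapped that of the normal glands, whereas 2.33% of all probe sets had groups that did not overlap.

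**Figure D1:**
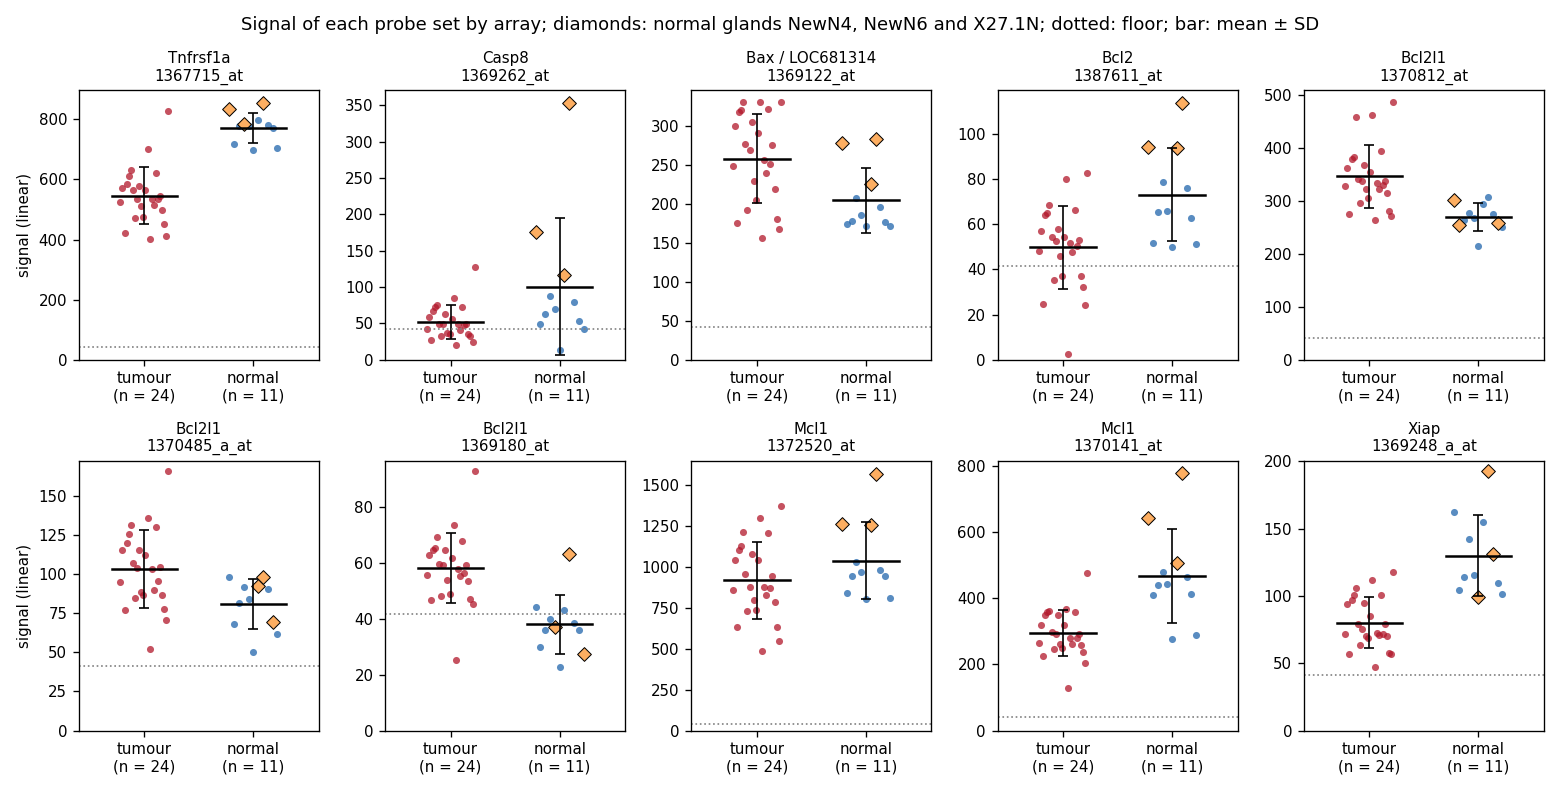
Signal on a linear axis of each of the 10 probe sets on every array, tumours at the left and normal glands at the right of each panel, with the mean and SD. Most tumours sit below every normal gland for Tnfrsf1a (22 of 24) and Xiap (19) and above every one for Bcl2l1 1370812_at (18), and the diamonds (NewN4, NewN6 and X27.1N) are the 3 highest normal glands for Casp8, Bcl2, Bax/LOC681314 and both Mcl1 probe sets.

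The tissues differed in their cell markers, and these differences stand beside every result that follows. In tumours all 6 measured adipocyte markers, all 6 fibroblast markers and all 3 endothelial markers were lower, and so were all 5 skeletal muscle markers, 4 of 6 basal and myoepithelial markers, 2 of 3 macrophage markers and 4 of 8 lymphocyte markers (1 was higher). Of 7 luminal epithelial markers 5 were higher and 0 lower, and all 6 markers of dividing cells were higher. The lymphocyte calls depended on the glands NewN4, NewN6 and X27.1N, described with Casp8. Without them Cd37 stayed lower (-0.87, limma adjusted p = 0.00304), and Cd79b (-0.006), Cd3d (0.21) and Ptprc (-0.43) were not called. In that setting Cd2 (0.54), Cd3e (0.35) and Lck (0.35) were called higher. The luminal marker Krt18 (0.85, limma adjusted p = 0.0918) and the macrophage marker Cd68 (-0.31, adjusted p = 0.259) also lost their calls there. Luminal levels also differed between glands. NewN minus the 3 others was 1.17 for Krt18 (limma adjusted p = 0.0106) and 1.19 for Krt19 (adjusted p = 0.0231). Both exceeded the rises in tumours, which were 0.87 and 1.11. The mean log2 level of the adipocyte markers lay between 5.44 and 7.80 in tumours and between 8.89 and 10.98 in normal glands. For the dividing-cell markers it lay between 7.13 and 8.93 in tumours and between 6.23 and 8.11 in normal glands. The adipocyte marker Lep was at the floor in 24 tumours, and so was the B cell marker Cd79b. In bulk tissue, fewer cells of a type and less RNA per cell cannot be told apart, and the part of these shifts in the members' changes was not tested. The 10th percentile of signal averaged 43.6 in tumours and 38.2 in normal glands, the 90th percentile 596 in tumours and 718 in normal glands, and the ratio of 3' to 5' Gapdh control signal 1.02 ± 0.0795 (SD, n = 24) in tumours and 1.13 ± 0.126 (SD, n = 11) in normal glands.

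Of the receptor route, Tnfrsf1a fell in nearly every tumour. Tnfrsf1a encodes the main receptor for tumour necrosis factor, from which both survival signals and death signals start. Its signal in tumours had a lowest value of 403, a median of 536 and a highest of 829, against 699, 777 and 856 in normal glands. Of 24 tumours 22 lay below every normal gland, and the tumours X15 (829) and X17 (702) were the exceptions. The mean was 545 ± 94.4 in tumours (SD, n = 24) and 773 ± 49.9 in normal glands (SD, n = 11), which is -0.52 on the log2 scale (SE 0.08, limma adjusted p = 7.32e-07). Quantile normalization reduced the size of the fall to -0.26 (adjusted p = 0.00145), and the call was kept. It was -0.48 (adjusted p = 2.85e-05) when the glands NewN4, NewN6 and X27.1N, described with Casp8, were left out.

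Among tumours, Tnfrsf1a was higher where endothelial markers were higher. Of 63 relations between the 7 genes and 9 marker lists over the 24 tumours, this was the only one to pass adjustment (Pearson r = 0.66, permutation p = 0.0004, adjusted p = 0.0252; Spearman rho = 0.61, p = 0.00221, adjusted p = 0.139). Without the 2 tumours farthest from the median of the endothelial level, r was 0.55. The relation did not pass without the tumour X22L (r = 0.65, adjusted p = 0.0554) or under quantile normalization (r = 0.59, adjusted p = 0.0891). X22L had the lowest mean log2 level of luminal epithelial markers among tumours (6.32, with X25L next at 10.10). Its macrophage level was the highest among tumours (10.80). The mean log2 level of the 3 endothelial markers lay between 6.24 and 8.15 in tumours and between 7.78 and 8.64 in normal glands. X15, the tumour with the highest Tnfrsf1a signal, also had the highest endothelial and adipocyte levels among tumours (8.15 and 7.80). Of the 3 endothelial markers, Kdr (the main VEGF receptor) fell by 1.72 and Pecam1 by 1.13 on the log2 scale in tumours. Without passing adjustment, Tnfrsf1a also rose among tumours with macrophage markers (r = 0.55, permutation p = 0.00625, adjusted p = 0.185). With adipocyte markers r was 0.53 (p = 0.0117, adjusted p = 0.185), and with fibroblast markers 0.45 (p = 0.0284, adjusted p = 0.358). Without the 2 farthest tumours these were 0.35, 0.11 and 0.41.

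**Figure D2:**
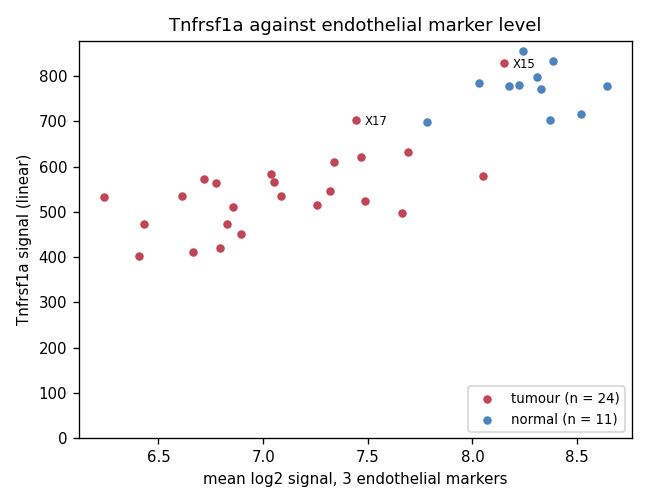
Tnfrsf1a signal (linear) against the mean log2 signal of the 3 endothelial markers Pecam1, Kdr and Vwf, one point per array. Tumours form a rising cloud with X15 at its upper end among the normal glands, which lie between 699 and 856.

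Casp8, the initiator caspase of the receptor route, gave a call that rested on a few normal glands. Its signal in tumours ran from 20.4 through a median of 49.3 to 128, against 13.1, 69.3 and 353 in normal glands. The groups overlapped: 0 tumours lay below every normal gland, and 9 tumours and 1 normal gland were at the floor. The log2 change was -0.61 (SE 0.22, adjusted p = 0.0171), and -0.40 with the floor at the 20th percentile (adjusted p = 0.0394). The glands NewN6 (353), NewN4 (176) and X27.1N (116) had the highest normal signals, and the other 8 glands lay between 13.1 and 88.1. With these 3 glands left out the change was -0.14 and was not called (adjusted p = 0.48). Leaving out NewN6 alone (-0.40, adjusted p = 0.0591) or NewN4 alone (-0.50, adjusted p = 0.0502) also ended the call.

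NewN6, NewN4 and X27.1N carried markers of lymphocytes. Cd79b, a part of the B cell receptor, was at the floor in all tumours, against a signal of 1013 in X27.1N, 809 in NewN4 and 1111 in NewN6. The other 8 glands did not exceed 42.9 for it. Cd3g, a subunit of the T cell receptor complex, was at most 241 in tumours, against 1077, 894 and 1639 in those 3 glands and no more than 75.8 elsewhere among the glands. The mean log2 level of all 8 measured lymphocyte markers ran from 6.25 to 7.50 in tumours and from 6.49 to 10.18 in normal glands. Macrophage markers were also highest among normal glands in NewN6 (10.59), X27.1N (10.51) and NewN4 (10.30), with X28.1N next (9.99). Adipocyte markers were lowest in X27.1N (8.89) and NewN6 (9.78). The name lymphocyte-marked is used below as a label, and the marker differences of these glands were not separated. The same 3 glands were the highest normal glands for Casp8, Bcl2, Bax/LOC681314 and both Mcl1 probe sets, and not for Tnfrsf1a, Xiap or any Bcl2l1 probe set. Values with and without them are therefore given for each member.

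**Figure D3:**
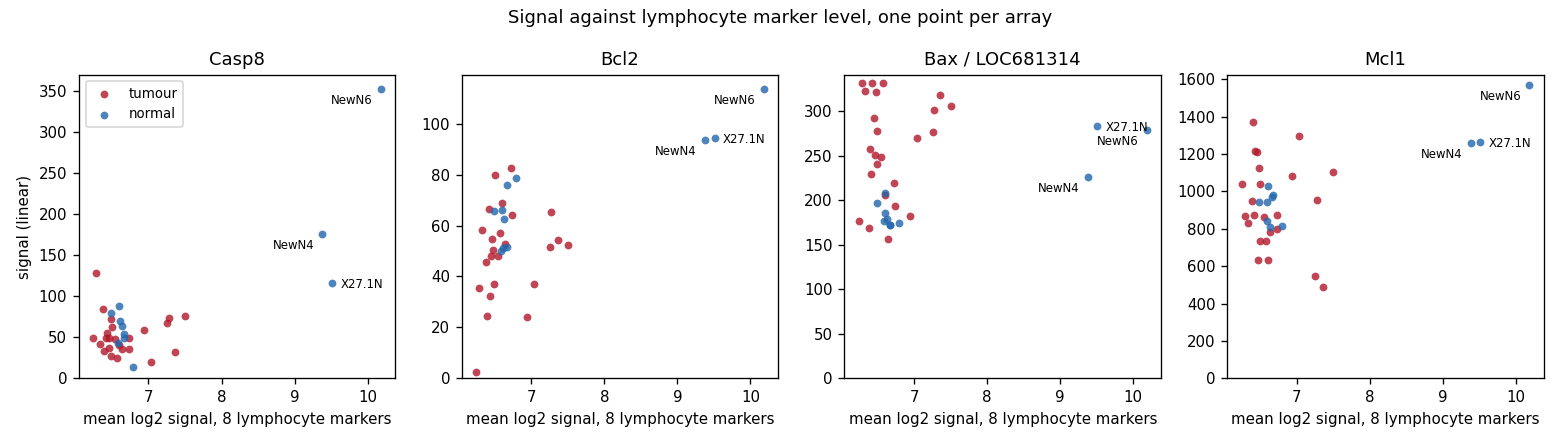
Signal (linear) of Casp8, Bcl2, Bax/LOC681314 and Mcl1 1372520_at against the mean log2 signal of 8 lymphocyte markers, one point per array, tumours red and normal glands blue. NewN4, NewN6 and X27.1N stand apart at the right, and the other 8 normal glands share the lymphocyte level of the tumours.

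Of the mitochondrial route, the Bax/LOC681314 probe set rose. BAX is the pore-forming member of the BCL2 family. Tumours had signals from 156 through a median of 264 to 332, against 172, 186 and 284 in normal glands. Of 24 tumours 20 lay above the normal median, 9 lay above every normal gland and 2 below every one. The mean was 259 ± 57.0 in tumours (SD, n = 24) and 205 ± 41.4 in normal glands (SD, n = 11), which is 0.32 on the log2 scale (SE 0.11, limma adjusted p = 0.0152). With the lymphocyte-marked glands left out it was 0.46 (adjusted p = 0.00158): NewN4, NewN6 and X27.1N had 226, 279 and 284, all above the other 8 glands (172 to 208). Of the tumours 18 lay above these 8 glands.

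Bcl2, the founding anti-death gene of the family, fell by 0.42 on the log2 scale (SE 0.12, adjusted p = 0.00273). Its signal was low throughout: 2.58 at the lowest, 52.0 at the median and 82.7 at the highest in tumours, against 49.9, 66.1 and 114 in normal glands. Of the tumours 10 lay below every normal gland, and 7 tumours and 0 normal glands were at the floor. X29.2 had the lowest signal, and X18 and X21 the highest among tumours. The 3 glands with lymphocyte markers were the highest (114 in NewN6, 94.3 in X27.1N and 93.6 in NewN4), and without them the change was -0.23 and was not called (adjusted p = 0.0908). The size depended on the floor, being -0.16 with the floor at the 20th percentile (adjusted p = 0.0144).

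Bcl2l1, which encodes BCL-XL and by alternative splicing the shorter death-promoting BCL-XS, rose on all 3 of its probe sets. Its brightest probe set, 1370812_at, had signals from 264 through a median of 336 to 486 in tumours, against 215, 268 and 306 in normal glands. Of 24 tumours 18 lay above every normal gland and 23 above the normal median. The mean was 346 ± 59.1 in tumours (SD, n = 24) and 269 ± 26.1 in normal glands (SD, n = 11), which is 0.35 on the log2 scale (SE 0.08, limma adjusted p = 0.000278). It was 0.35 without the 3 lymphocyte-marked glands and 0.46 under quantile normalization, called in both.

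The other Bcl2l1 probe sets also rose, by amounts that depended on the setting. For 1370485_a_at tumours ran from 52.1 through a median of 104 to 166, against 50.2, 84.1 and 98.6 in normal glands (log2 change 0.34, SE 0.12, adjusted p = 0.0172), and 13 tumours lay above every normal gland. That call was lost under quantile normalization (0.22, adjusted p = 0.144) and against the NewN glands alone (0.20, adjusted p = 0.2), and kept without the 3 lymphocyte-marked glands (0.39, adjusted p = 0.0195). For 1369180_at tumours ran from 25.2 through a median of 58.7 to 93.0, against 22.8, 37.2 and 63.4 in normal glands (log2 change 0.41, SE 0.09, adjusted p = 0.000109). There 1 tumour and 8 normal glands were at the floor, so its size is set by the floor: it was 0.61 with the floor at the 5th percentile (adjusted p = 7.80e-05) and 0.02 with the floor at the 20th, where it was not called (adjusted p = 0.513). Without the 3 lymphocyte-marked glands it was 0.46 (adjusted p = 7.78e-05). Within the 24 tumours 1370812_at and 1370485_a_at varied together (Pearson r = 0.55, permutation p = 0.00515, adjusted p = 0.0103 over 4 probe set pairs; Spearman rho = 0.50, p = 0.0134), and r was 0.58 without the 2 farthest tumours. Their relation with 1369180_at did not pass (r = 0.26 and 0.20, adjusted p = 0.302 and 0.352; Spearman rho = 0.25 and 0.24). Which isoform each probe set reads was not analysed here.

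Mcl1, a short-lived anti-death protein that many growth signals sustain, gave different answers on its 2 probe sets. On 1372520_at tumours had 487 at the lowest, 876 at the median and 1374 at the highest, against 807, 968 and 1570 in normal glands, and the log2 change of -0.19 (SE 0.13) did not pass (adjusted p = 0.199). Its sign depended on the scaling, being 0.10 under quantile normalization, also without a call (adjusted p = 0.52). On 1370141_at tumours had 130, 286 and 478, against 276, 443 and 777 in normal glands, and it fell by 0.65 (SE 0.14, adjusted p = 0.000124). There 10 tumours lay below every normal gland and 23 below the normal median. The 3 lymphocyte-marked glands were the highest on both probe sets (1570, 1264 and 1257 on the first). Without them the changes were -0.04 (adjusted p = 0.851) and -0.47 (adjusted p = 0.00535). Both probe sets varied together among tumours (r = 0.60, permutation p = 0.00161, adjusted p = 0.00644; Spearman rho = 0.52, p = 0.00995; r = 0.43 without the 2 farthest). The difference between the 2 changes was not tested.

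Xiap had the largest change of the 10 probe sets. XIAP is the inhibitor of apoptosis protein that binds caspases 3, 7 and 9. Its signal in tumours ran from 47.4 through a median of 73.8 to 118, against 99.5, 116 and 193 in normal glands. Of 24 tumours 19 lay below every normal gland and 23 below the normal median. The mean was 80.0 ± 18.9 in tumours (SD, n = 24) and 130 ± 29.97 in normal glands (SD, n = 11), which is -0.71 on the log2 scale (SE 0.12, limma adjusted p = 7.22e-06). It was -0.67 without the 3 lymphocyte-marked glands and -0.78 under quantile normalization, called in both. Against the 3 glands not called NewN it was -0.43 and was not called (adjusted p = 0.146).

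**Figure D4:**
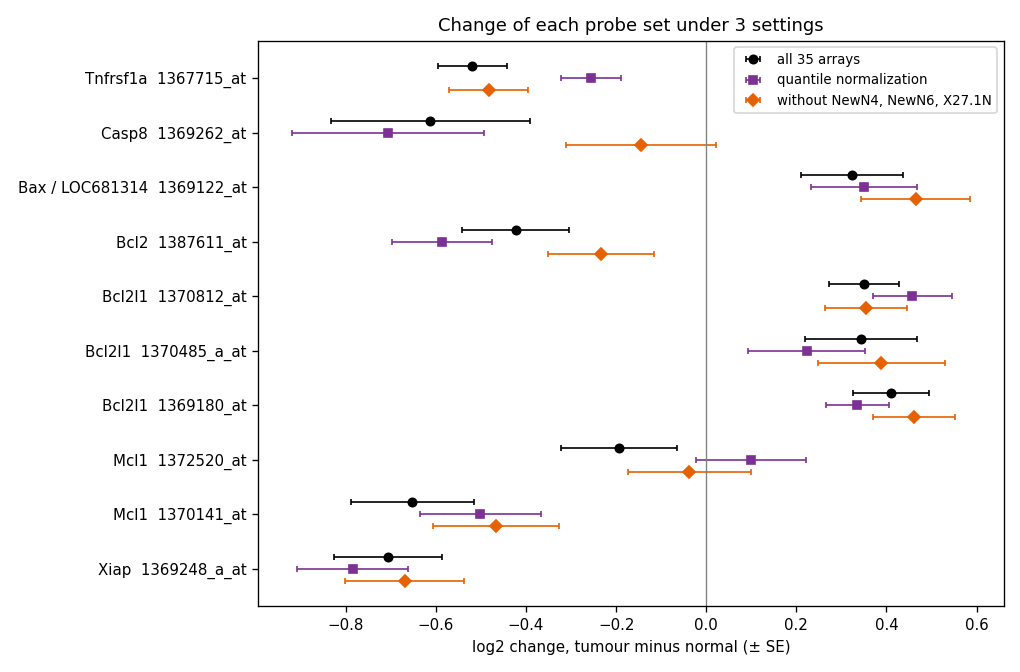
Log2 change, tumour minus normal, with its SE for each probe set over all 35 arrays, under quantile normalization and with the 3 lymphocyte-marked glands left out. Casp8 and Bcl2 move toward 0 without the 3 glands, while Tnfrsf1a, Xiap, Bcl2l1 and Bax/LOC681314 stay on their side in each setting, and Mcl1 1372520_at changes sign under quantile normalization.

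Differences between family members were also taken within each array. The log2 signal of Bcl2l1 1370812_at minus that of Bcl2 was higher by 0.77 in tumours than in normal glands, and lay above the normal median in 24 of 24 tumours and above every normal gland in 15. Bax/LOC681314 minus Bcl2 was higher by 0.75, above the normal median in 21 tumours and above every normal gland in 18. Mcl1 1372520_at minus Bcl2l1 changed by -0.54, and lay below every normal gland in 16 tumours. Bcl2l1 minus Bax/LOC681314 differed by 0.03. These are descriptions with no test. They show unequal change of the probe sets, and Bcl2 at the floor in 7 tumours bounds them. They were not taken under quantile normalization or without the 3 lymphocyte-marked glands. Without those glands the change of Bcl2 was -0.23 and that of Mcl1 1372520_at -0.04, both closer to no change.

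Most members did not pass a test between the sets of normal glands. Of 10 member probe sets 1 was called, and it was higher, between the 8 NewN glands and the 3 others, against 21.1% of all probe sets (11.2% higher and 9.94% lower). That was Bcl2l1 1370485_a_at, at 88.3 ± 10.1 in NewN glands (SD, n = 8) and 60.7 ± 9.82 in the other glands (SD, n = 3), a log2 difference of 0.55 (SE 0.13, limma adjusted p = 0.0145). Xiap was at 139 ± 30.1 in NewN glands and 105 ± 7.88 in the others (difference 0.38, limma adjusted p = 0.155). Tnfrsf1a was at 771 ± 50.6 in NewN glands and 776 ± 58.8 in the others (difference -0.01, SE 0.07).

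No pair of the 7 genes passed a test for varying together among tumours. Of 21 pairs of genes, each by its brightest probe set, 0 passed adjustment over the pairs and 1 had an unadjusted permutation p under 0.05. That pair was Bcl2l1 and Xiap (Pearson r = 0.41, p = 0.0456, adjusted p = 0.748; Spearman rho = 0.29, p = 0.172, adjusted p = 0.723; r = 0.35 without the 2 farthest tumours). Bcl2 and Mcl1 had r = -0.34 (p = 0.0994, adjusted p = 0.748; Spearman rho = -0.43, p = 0.0377, adjusted p = 0.723; r = -0.47 without the 2 farthest). In its spread over tumours against glands 0 of the 7 genes passed adjustment by permutation, and 2 had an unadjusted p under 0.05. The log2 SD of Tnfrsf1a was 0.24 in tumours and 0.09 in normal glands (adjusted p = 0.0758), and that of Casp8 was 0.43 in tumours and 0.94 in normal glands (adjusted p = 0.11).

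Tumours that share a title number differed from each other. X25L minus X25R was -0.63 on the log2 scale for Mcl1 1370141_at and -0.50 for Bax/LOC681314. Casp8 was at 59.0 in X25L and at 33.1, under the floor, in X25R. X29.1 minus X29.2 was 0.78 for Casp8, 0.60 for Xiap and -0.06 for Tnfrsf1a. Bcl2 was at 45.9 in X29.1 and at 2.58, under the floor, in X29.2. With 1 array of each tumour these differences have no error of their own.

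Likeness of pattern was ranked over 9264 genes by Pearson r of group-centred log2 values over the 35 arrays, which share their scaling, and is given as a description. Closest to Tnfrsf1a were Cmtm7 (0.75) and Zyx (0.73). Casp8 was most like Sri (0.85) and Ptk2b (0.82), Bcl2 most like Klrk1 (0.73) and Rrp9 (0.72). Closest to Bax/LOC681314 were Ppp4c (0.83) and Dnmt1 (0.81), and to Mcl1 Rpp21 (0.81) and Pcgf1 (0.80). Xiap was most like Sel1l (0.72) and Agps (0.70), and Bcl2l1 most like Ttc8 (0.62) and Wdfy2 (0.61). For Casp8 with Ptk2b r was 0.60 within tumours and 0.95 within normal glands, and for Bcl2 with Klrk1 it was 0.58 within tumours and 0.89 within normal glands, where the 3 lymphocyte-marked glands lie far out. The same limit holds for Casp8 with Sri (0.74 and 0.92) and Bax/LOC681314 with Ppp4c (0.81 and 0.95) and Dnmt1 (0.78 and 0.93). It also holds for Mcl1 with Rpp21 (0.79 and 0.91) and Pcgf1 (0.77 and 0.94). For Xiap, which those glands do not all lead, r with Sel1l was 0.72 and 0.83.

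Start-site sequences of 4 of the 7 genes (Tnfrsf1a, Bcl2, Bcl2l1 and Mcl1) were found in RefSeq's promoter table of build GRCr8. The 250 bases before the start are printed for Tnfrsf1a and Bcl2, which were both lower in tumours, 5′ to 3′ on the strand of the gene. The windows are chr4:159836869-159837118 (plus strand) for Tnfrsf1a and chr13:23366901-23367150 (minus strand) for Bcl2. Capitals mark a TATA box.

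Tnfrsf1a: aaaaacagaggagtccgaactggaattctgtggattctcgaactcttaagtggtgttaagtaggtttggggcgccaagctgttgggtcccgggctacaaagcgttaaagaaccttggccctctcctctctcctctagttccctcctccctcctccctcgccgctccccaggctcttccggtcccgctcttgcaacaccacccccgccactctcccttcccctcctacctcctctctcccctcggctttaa
Bcl2: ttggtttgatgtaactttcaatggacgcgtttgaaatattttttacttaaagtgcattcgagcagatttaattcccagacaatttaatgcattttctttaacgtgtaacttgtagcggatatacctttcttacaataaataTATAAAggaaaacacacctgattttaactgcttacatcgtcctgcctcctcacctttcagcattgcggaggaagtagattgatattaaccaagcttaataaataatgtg

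Motifs were searched on both strands: the GC box (GGGCGG), the TATA box (TATAAA), the STAT site (TTCNNNGAA) and, by name, the NF-kB site. Over all 33465 windows of 250 bases, 30.5% held the GC box, 12.9% the TATA box, 7.67% the STAT site and 6.33% the NF-kB site. The Tnfrsf1a window had none of these letters and the Bcl2 window only a TATA box, 109 bases before the start. The anti-death relatives Bcl2l1, which rose, and Mcl1, which fell on 1 of its 2 probe sets, had other motifs, shown in stretches of 30 bases with the motif in capitals. Bcl2l1 has 4 windows in the table, and 2 overlapping ones hold the same pair of STAT sites. The Bcl2l1 stretches are chr3:161763461-161763490 and chr3:161763386-161763415 (minus strand). Their STAT sites begin 94 and 13 bases before the start of 1 of these windows, and 229 and 148 before that of the other. The Mcl1 stretch is chr2:185908061-185908090 (plus strand), where a GC box and an NF-kB site overlap, both matched on the other strand. A match is a run of letters and not evidence of binding.

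Bcl2l1 first site: gagaaaggcatTTCGGAGAAaagggggtgg
Bcl2l1 second site: ggtcctttcaatttgacTTCATTGAAgtct
Mcl1 site: cagctcccGGAAACTCCCGCCCctctcccc

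The rest of the pathway moved in both directions. Of 65 further apoptosis genes listed by role, 52 were measured, and 13 rose, 12 fell and 27 did not pass (median log2 change 0, against 0.02 over 10411 genes by their brightest probe set, of which 58.9% were called, 31.4% higher and 27.5% lower). The counts were 15 and 11 without the 3 lymphocyte-marked glands, 14 and 12 without the tumour X22L, and 15 and 9 under quantile normalization, where Bcl2l2 (-0.23), Bak1 (0.21) and Tnfrsf1b (-0.29) gained a call.

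Of the death receptors and ligands 4 of 10 rose and 2 fell. Tnfrsf12a, the receptor for the TNF family ligand TWEAK, was at 349 ± 91.0 in tumours and 152 ± 33.3 in normal glands (SD, n = 24 and 11), which is 1.17 on the log2 scale (SE 0.14, limma adjusted p = 5.86e-09). Its ligand Tnfsf12 (TWEAK) was at 169 ± 26.6 in tumours and 361 ± 65.4 in normal glands, a change of -1.09 (SE 0.09, adjusted p = 1.71e-12), the tumours running from 126 to 222 and the glands from 235 to 436 without overlap. Ltbr, the lymphotoxin beta receptor, fell by 0.60, and Lta (lymphotoxin alpha) rose by 0.58, Faslg (Fas ligand) by 0.43 and Tnf by 0.35. Under quantile normalization Ltbr was at -0.38 and Faslg at 0.28, both called. Their normal levels depended on the glands. For Ltbr, NewN minus the 3 glands not called NewN was 0.81 (limma adjusted p = 0.00332), more than its fall. For Faslg it was -0.43 (limma adjusted p = 0.0499), about the size of its rise. For Tnfsf12 it was 0.49 (limma adjusted p = 0.0128), less than its fall, and Lta was not called (-0.42, limma adjusted p = 0.178). The changes of these genes against those 3 glands alone are not given here. The call of Tnf (adjusted p = 0.0469) was lost without the 3 lymphocyte-marked glands (adjusted p = 0.0853), and its second probe set was not called. Fas itself was at the floor in 23 tumours and 11 normal glands, so no change of it can be given. Tnfrsf21 (death receptor 6) was at 0.42 (adjusted p = 0.218), and was called without X22L (0.59, adjusted p = 0.00465) and under quantile normalization (0.70, adjusted p = 0.0344). Without the 3 lymphocyte-marked glands it was at 0.34 with no call (adjusted p = 0.404). Its NewN glands exceeded the 3 glands not called NewN by 1.39 (limma adjusted p = 0.00293), more than each of these changes.

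Of 9 adaptors of these receptors 1 rose and 1 fell. Cflar, which encodes c-FLIP, a catalytically inactive relative of caspase 8 that competes with it, rose by 0.53 (SE 0.11, adjusted p = 0.000121), with tumours at 165 ± 31.5 and glands at 116 ± 34.1. Ripk1, a kinase bound to TNFR1, fell by 0.40 (SE 0.11, adjusted p = 0.00243). Daxx was at -0.02 (adjusted p = 0.91). Without the 3 lymphocyte-marked glands the adaptors Traf3 (0.42, adjusted p = 0.000154, against 0.20 with all glands) and Ripk3 (0.41, adjusted p = 0.00742, against 0.19) were called higher as well. Of 6 caspases 1 rose and 2 fell: Casp6, an executioner, rose by 0.55 (adjusted p = 0.000457), and the inflammatory caspases Casp1 (-0.31, adjusted p = 0.0451) and Casp4 (-0.30, adjusted p = 0.00079) fell. Casp2, the brightest of the caspases measured, was at -0.14 (adjusted p = 0.263). The call of Casp1 was lost without the 3 lymphocyte-marked glands (-0.15) and under quantile normalization (-0.17).

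Of 8 BH3-only genes, the sensors that activate BAX or disarm BCL2, 2 rose and 3 fell. Bnip3 and Bnip3l, which are also induced by low oxygen and mark mitochondria for removal, fell by 0.85 (SE 0.18, adjusted p = 0.000101) and 0.49 (SE 0.10, adjusted p = 0.000138), and under quantile normalization Bnip3 was at -0.54 with its call and Bnip3l at -0.19 without one. Bmf fell by 0.67 (SE 0.10, adjusted p = 5.34e-07), at 51.8 ± 10.2 in tumours and 85.0 ± 20.8 in normal glands. Bcl2l11 (BIM) rose by 0.39 on its brightest probe set, with all 3 of its probe sets called higher, and Hrk by 0.23 (0.36 under quantile normalization). Bid, which caspase 8 cleaves to link both routes, was at -0.07 without a call (adjusted p = 0.711), and at 0.30 with one (adjusted p = 0.00106) without the 3 lymphocyte-marked glands. Of the other BCL2 relatives, Bcl2l10 rose by 0.70 (adjusted p = 5.24e-05). Bok fell by 0.22 (adjusted p = 0.0227) on its brighter probe set, while its other was called higher, and under quantile normalization the brighter one was at 0.08 without a call. The co-chaperone Bag1 fell by 0.28, also without a call under quantile normalization (-0.05).

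Of 4 measured relatives of Xiap 2 rose and 1 fell. Birc5 (survivin), which also serves chromosome segregation in dividing cells, rose by 0.88 (SE 0.13, adjusted p = 6.74e-07), at 278 ± 63.5 in tumours and 155 ± 52.9 in normal glands, beside the 6 of 6 markers of dividing cells that rose. Its normal level depended on the glands, NewN minus the 3 glands not called NewN being -0.77 (limma adjusted p = 0.0281). The fourth, Birc3 (cIAP2), was at 0.27 (adjusted p = 0.307), and at 0.80 with a call (adjusted p = 7.16e-05) without the 3 lymphocyte-marked glands. Birc7 (livin) rose by 0.50 (adjusted p = 0.000122), and Birc2 (cIAP1) fell by 0.21 (adjusted p = 0.00281), without a call under quantile normalization (-0.08). Of the mitochondrial and apoptosome genes 1 of 5 fell, Aifm1 (-0.31, adjusted p = 0.00571), and Diablo (SMAC, the antagonist of XIAP) was at 0.04 (adjusted p = 0.566) but was called under quantile normalization (0.22, adjusted p = 0.000212). Dffa and Dffb, inhibitor and nuclease of the DNA fragmentation factor, rose by 0.23 and 0.21. Dffa was at 0.41 under quantile normalization and lost its call without the 3 lymphocyte-marked glands (0.12), and Dffb lost its under quantile normalization (0.10).

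**Figure D5:**
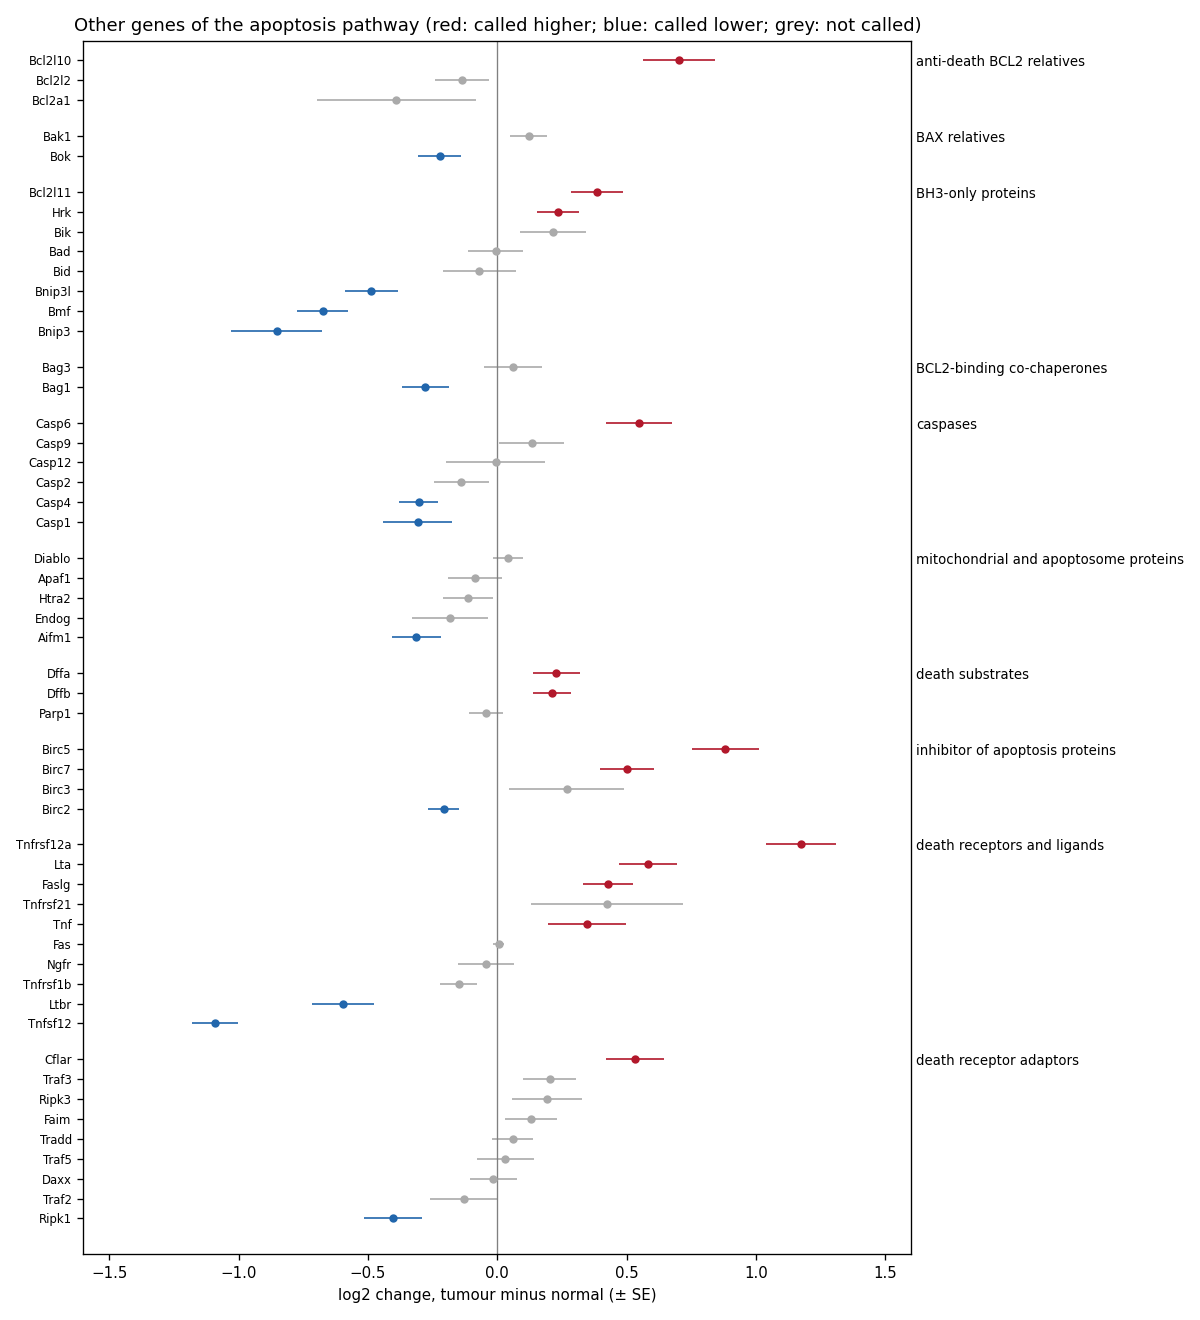
Log2 change, tumour minus normal, with its SE for the 52 other measured apoptosis genes, grouped by role, each by its brightest probe set. Called changes (red higher, blue lower) run in both directions, with Tnfrsf12a at 1.17 and Tnfsf12 at -1.09 the farthest out.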

How the data were processed

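Each sample was one array of a rat expression platform. The deposited table gives one intensity per probe set on a linear scale, already summarised by the authors, with software and scaling not given in the sources used here. Array medians lay between 158 and 176 and were kept. Groups came from the source labels. The 57 control probe sets were left out, values under the floor were raised to it and log2 was taken. Symbols came from the platform annotation, where 12783 probe sets carry 1 symbol, 312 several and 2771 none. A gene was represented by its probe set with the highest mean. The groups were tested in limma 3.58.1 (R 4.3.3) (trend and robust eBayes, no covariate, Benjamini-Hochberg over all probe sets). Correlations and spreads used 100000 two-sided permutations. On simulated arrays of 15866 probe sets the tumour against normal fit recovered 48% of 1.25-fold, 86% of 1.5-fold and 96% of 2-fold changes. The number of arrays limits the precision.

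The 7 genes, the gene lists and the alternatives were chosen with earlier results of these data known, including the lymphocyte markers of 3 glands; leaving out those glands or X22L for the list counts was added later. Named list genes were the 3 largest called changes of a list and its brightest gene. Up to 2 genes with the largest change of a marker list could be named. Bcl2l11, Hrk, Tnf, Lta, Faslg, Fas, Traf3, Ripk3, Bid and Birc3 were named after their values were seen. So were Bcl2l2, Bak1, Tnfrsf1b, Lep, Cd3g, Cd3d, Ptprc, Cd2, Cd3e, Lck, Krt18 and Cd68. Promoter sequences are RefSeq's, build GRCr8. No column of another series was used.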

Additional observations from a re-analysis of the deposited data

Results flagged for a closer look

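Among the 8 NewN glands, NewN6 stood apart for Casp8 on the linear scale: its signal of 353 was followed by 176 in NewN4. The gap took 0.583 of the linear range of the 8 glands, over Dixon's 95% limit for 8 samples. The gap was not examined on the log2 scale used for the changes, which shrinks gaps between high values. No other member probe set passed this limit in either direction. For normally distributed values chance alone passes it in about 1 in 20 groups, and 10 probe sets were examined. Whether these linear signals are normally distributed was not tested. NewN6 also had the highest lymphocyte marker signals of the normal glands, for example 1639 for Cd3g.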

How the results depend on the processing

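Of 142 values of member probe sets under 15 alternatives, 129 kept their side of the threshold, 12 lost their call and 1 gained one, and 0 called changes reversed. The uncalled change of Mcl1 1372520_at turned sign under quantile normalization (0.10). The mean of both Mcl1 probe sets was called (-0.42), while 1372520_at on its own was not. Against X27.1N, X28.1N and Young only, 1 member probe set was called higher and 1 lower, and Casp8 (-0.15), Bax/LOC681314 (0.29), Bcl2 (-0.45), Bcl2l1 (0.37), Xiap (-0.43), Bcl2l1 1369180_at (0.25) and Mcl1 1370141_at (-0.27) lost their calls; with 3 glands 2658 of all probe sets were called, against 9238. Without NewN4, NewN6 and X27.1N, Casp8 (-0.14) and Bcl2 (-0.23) lost theirs, 3 probe sets were lower, and the spread of 3 genes passed, in a comparison that removes the highest normal glands of Mcl1 and Bax/LOC681314 and so narrows the normal spread by construction. With the brightest probe sets only, 2 were higher and 2 lower, since 5 of the 10 are dimmer and were not tested. Leaving out each array in turn, Casp8 ran from -0.71 to -0.40, and every other call was kept. The number of relations with marker lists was 0 without X22L and 0 under quantile normalization, against 1. With the title number as a replicate block (correlation 0.32, 8 arrays sharing 4 numbers) Tnfrsf1a was -0.53 and no member call changed. The causes were not tested. Members near the floor (Casp8, Bcl2 and Bcl2l1 1369180_at) are the least precise.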
